A study of Mus musculus with 6 samples.

Results

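The bodies of very long genes were examined in a reduced representation bisulfite sequencing (RRBS) study of mouse intestinal organoids. A gene was taken as long when its annotated span covered 300000 bases or more, and its body was the span without the outer 1000 bases at each end. A body site was a cytosine position with a methylation value in all 6 libraries. The table held 813850 rows, of which the 390208 whose libraries lined up were used, and 272327 of those had a value in every library. In these rows 27016 sites lay in long gene bodies. They fell in 327 of the 340 long protein-coding genes on the 13 chromosomes covered (chromosomes 1, 2, 10 to 19 and part of chromosome 3), out of 556 long genes in the annotation of 21896 protein-coding genes. Of the 327 genes, 324 had at least 3 sites and are described gene by gene, and 311 had at least 10. The other 3, B3galt1, Ube2e2 and Ranbp17, count only in the means over sites. Bodies of genes under 30000 bases served for comparison, with 51180 sites and 2748 genes of at least 3 sites.

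All 6 libraries came from organoids grown from intestine of Apc Min mice, which carry a truncating allele of Apc, an inhibitor of Wnt signalling, and all were kept in organoid medium low in glutamine. The control group had 3 biological replicates under the label of control treatment. The treated group had 3 replicates given DM-aKG. Going by the series title the compound is a form of α-ketoglutarate, and the labels give no dose, duration or animal age. Whether the replicates came from separate mice is not stated, so the tests measure the spread between these cultures. The labels call the cells primary, and no expression was measured in these libraries, so their cell type could not be checked against markers.

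RRBS reads CpG-rich restriction fragments, and the deposited value is the percent of methylated cytosine at a position. The values are whole numbers that are either 0 or between 40 and 100. A 0 can stand for a low level or for no call and was treated as no value, so every level here describes a site methylated at 40% or more in each library. No coverage was given with the values, and the read depth behind each is unknown.

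Cytosine methylation is placed on CpG sites by the DNMT enzymes and removed stepwise through oxidation by the TET enzymes, which use α-ketoglutarate as a co-substrate. In mammalian cells the bodies of genes are usually methylated, and methylation there is often higher in genes that are transcribed. Many of the longest mammalian genes encode neuronal adhesion molecules, ion channels and synaptic proteins, which an epithelial cell usually does not make, while others encode kinases, cytoskeletal linkers and trafficking proteins used in many cells. Very long genes also include the common fragile sites, regions that tend to break under replication stress.

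Sequence of measured CpGs inside long gene bodies is shown first, from the places where the RefSeq promoter table (build GRCm38.p6) overlaps them with at least 3 sites. There were 5 such windows, each starting 250 bases before an annotated start that lies inside a long gene. All are written on the plus strand, 5′ to 3′, and capitals mark the CpGs that carried a body site. They are given because they show how sparse and how unequal neighbouring measured CpGs are within a long body.
Ltbp1, chr17:75178531-75178780: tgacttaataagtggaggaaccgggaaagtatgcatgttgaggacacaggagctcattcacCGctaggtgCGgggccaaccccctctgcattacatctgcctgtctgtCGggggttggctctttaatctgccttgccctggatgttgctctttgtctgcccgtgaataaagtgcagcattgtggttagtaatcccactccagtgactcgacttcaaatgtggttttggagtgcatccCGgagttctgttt
Ptprg, chr14:12189693-12189942: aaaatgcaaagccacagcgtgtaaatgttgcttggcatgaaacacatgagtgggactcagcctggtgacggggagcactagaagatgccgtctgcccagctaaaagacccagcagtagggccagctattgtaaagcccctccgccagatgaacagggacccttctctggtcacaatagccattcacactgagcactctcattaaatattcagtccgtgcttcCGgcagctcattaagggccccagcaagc
Gm33240, a lncRNA inside Spock1, chr13:57444165-57444414: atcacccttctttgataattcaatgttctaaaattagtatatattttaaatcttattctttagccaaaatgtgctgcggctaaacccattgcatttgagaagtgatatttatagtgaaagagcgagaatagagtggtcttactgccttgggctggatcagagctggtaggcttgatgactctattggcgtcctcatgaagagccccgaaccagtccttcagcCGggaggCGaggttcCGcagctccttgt
Gm34996, a lncRNA inside Erc2, chr14:27876419-27876668: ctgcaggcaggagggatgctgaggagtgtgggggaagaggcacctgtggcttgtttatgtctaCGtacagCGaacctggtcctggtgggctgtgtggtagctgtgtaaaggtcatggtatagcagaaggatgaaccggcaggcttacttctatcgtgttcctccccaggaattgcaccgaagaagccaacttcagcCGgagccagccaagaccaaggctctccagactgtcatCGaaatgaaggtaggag
3300002A11Rik, a lncRNA inside Foxn3, chr12:99340781-99341030: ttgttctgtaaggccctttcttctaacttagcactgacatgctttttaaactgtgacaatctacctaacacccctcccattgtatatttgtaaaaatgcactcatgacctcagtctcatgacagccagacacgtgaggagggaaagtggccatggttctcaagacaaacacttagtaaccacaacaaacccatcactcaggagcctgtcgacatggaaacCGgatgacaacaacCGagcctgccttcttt

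Neighbouring CpGs in these windows differed widely in the same libraries. In the window of Ltbp1, which encodes a TGF-β-binding matrix protein, 4 of the 7 CpGs printed were measured. Counting bases before the annotated start, the CpG at -189 averaged 87.3% over the 6 libraries, that at -180 averaged 86.6%, that at -142 averaged 67.4%, and that at -13 averaged 48.2%. The CpG at -142 read 77.5%, 72.0% and 77.0% in the controls and 65.5%, 59.5% and 53.0% with DM-aKG. It was picked after its values were seen, and all treated libraries lay below all controls there. Over the whole window, the levels were 72.1%, 81.6% and 79.4% in the controls and 74.9%, 72.9% and 74.1% with DM-aKG, and the groups overlap.

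The window inside Spock1, a proteoglycan gene, had the same kind of spread. Its CpG at -21 averaged 54.3%, while the CpG 8 bases further on, at -13, averaged 90.9%. The window, with a measured CpG just after the start that is not printed, read 70.7%, 70.2% and 72.2% in the controls and 72.2%, 74.3% and 74.2% with DM-aKG. The top control and the lowest treated library had the same value. Inside Erc2, which encodes an active-zone scaffold of the synapse, the CpG at -187 averaged 94.8% and that at -180 averaged 65.8%. The windows of Ptprg, a receptor tyrosine phosphatase, and of Foxn3, a forkhead repressor, had means of 92.8% and 94.8%, but only 2 CpGs were measured in each. Those of Ptprg averaged 95.8% at -28 and 91.25% at 5 bases after the start, past the printed bases. Those of Foxn3 averaged 96.8% and 93.75%. The control and treated libraries overlapped in all 5 windows. The motif CCGG, a recognition site commonly used for RRBS, was searched over the 300 bases of each window, where it reads the same on both strands. It occurred at least once in each of the 5, beside 52.8% of all 32851 promoter windows of that length (17338 windows). The 5 were picked for holding at least 3 measured sites, a choice not made for the rest, so the shares are not comparable.

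Long gene bodies had lower methylation levels than short ones in every library. The 3 controls averaged 84.3%, 87.0% and 86.9% over long body sites and 88.2%, 88.7% and 88.9% over short body sites. The 3 DM-aKG libraries averaged 87.3%, 87.6% and 88.4% in long bodies and 89.1%, 89.2% and 89.3% in short ones. Long bodies thus lay below short bodies by 3.91, 1.68 and 2.0 percentage points in the controls and by 1.75, 1.57 and 0.933 points with DM-aKG. The mean gap was -1.97 points and had the same sign in 6 of 6 libraries (exact two-sided sign-flip permutation p = 0.03125, the smallest that 6 libraries allow). With any 1 library left out it stayed between -2.18 and -1.59 points, with an exact sign-flip p of 0.0625, the smallest that 5 libraries allow. Sites of the same library share its preparation, and the libraries, not sites or genes, were the units of the test.

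The share of partly methylated sites differed in the same direction. In long bodies 23.6% of sites had a mean level under 80%, compared with 18.6% in short bodies. The median site stood at 90.8% in long and 93.3% in short bodies. Sites at 100% in all 6 libraries made up 2.42% of long body sites and 3.98% of short body sites. Genes of 100000 to 300000 bases were intermediate, with 87.9% in controls and 89.0% with DM-aKG, and genes of 30000 to 100000 bases had 88.9% and 89.7%, slightly above the short genes.

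Sites were also spread far more thinly in long genes. The median long gene had 60 sites over a median span of 453158 bases, or 11.9 sites per 100000 bases, while the median short gene had 12 sites and 95.4 per 100000 bases. The share of rows with a value in all 6 libraries was 70.0% in long bodies (27016 of 38610) and 71.9% in short ones (51180 of 71174). Across the 324 long genes, the level correlated with the logarithm of site density at r = 0.294 and with the logarithm of span at r = -0.116. These are descriptions across genes measured in the same libraries, and genes are not independent replicates.

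**Figure D1:**
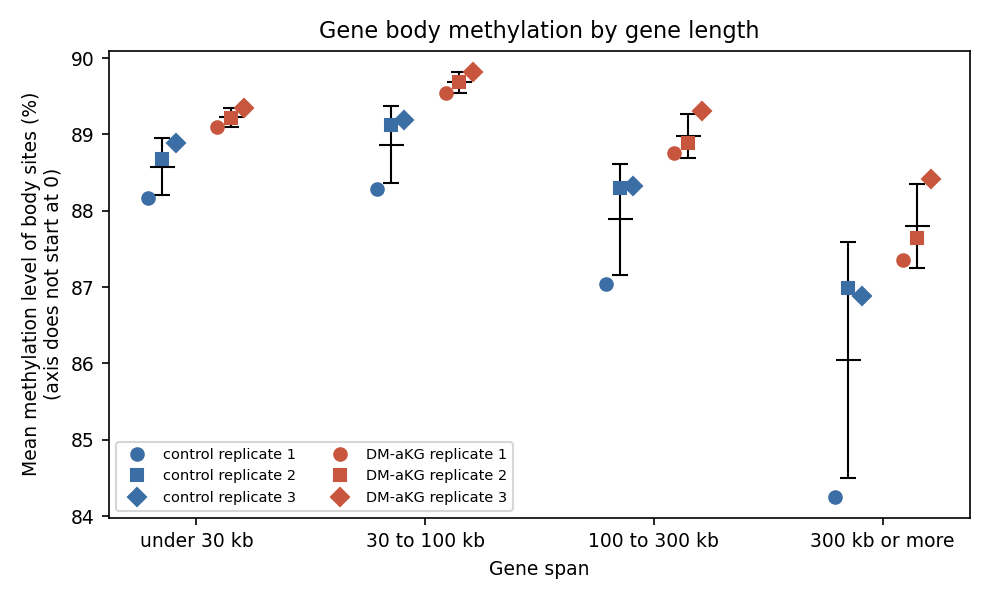
Mean methylation level of body sites (vertical axis, percent, not starting at 0) in 4 classes of gene span (horizontal axis), with 1 point per library and bars for the mean ± SD of 3 libraries. Long bodies are the lowest class, and control replicate 1 at 84.3% stands below the other 5 libraries in them.

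DM-aKG libraries had higher levels in long bodies than the controls, and the 2 groups did not overlap. The control mean was 86.0% ± 1.55 (SD, n = 3) and the DM-aKG mean 87.8% ± 0.551 (SD, n = 3), a difference of 1.76 percentage points (exact two-sided permutation p = 0.1, the smallest that 3 against 3 allows). In short bodies the control mean was 88.6% ± 0.374 (SD, n = 3) and the DM-aKG mean 89.2% ± 0.125 (SD, n = 3). That difference was 0.647 points, also without overlap (exact permutation p = 0.1). The difference was 1.10 points in genes of 100000 to 300000 bases and 0.816 points in genes of 30000 to 100000 bases. Whether the treatment difference was larger in long than in short bodies was tested on the gap within each library. It differed by 1.11 points between the groups, with overlap, and did not pass (exact permutation p = 0.2).

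The size of this difference depended most on control replicate 1, and also on DM-aKG replicate 3. Control replicate 1 was the lowest library in 246 of the 324 long genes, and DM-aKG replicate 3 was the highest in 177. Control replicate 1 also had a value at the fewest positions of long bodies, 82.8%, against 85.8% to 88.8% in the other 5 libraries. Without control replicate 1, the long body difference was 0.863 points (exact permutation p = 0.2), where 2 against 3 libraries allow 0.1. That of short bodies was 0.440 points (exact permutation p = 0.1), and the difference between them 0.423 points. Without DM-aKG replicate 3, the difference was 1.45 points in long bodies (exact permutation p = 0.3) and 0.583 points in short bodies. The treatment of the value 0 also moved the result: with each library averaged over its own valued positions the long body difference was 0.889 points (exact permutation p = 0.1), and with every 0 kept as a level of 0 it was 0.548 points (exact permutation p = 1).

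The difference was larger at partly methylated sites in both classes. Long body sites with a mean level under 80% averaged 67.4% ± 3.13 (SD, n = 3) in controls and 71.1% ± 1.93 (SD, n = 3) in treated libraries. The difference was 3.78 points, or 1.98 points without control replicate 1. At long body sites of 80% or more it was 1.13 points, or 0.519 points without that library. In short bodies the corresponding differences were 1.65 and 0.418 points, or 1.22 and 0.262 points without it. Each of the 4 comparisons over all 6 libraries had an exact permutation p of 0.1, the smallest the design allows.

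Single long genes ranged from 66.7% to 96.9%, with a median of 85.9%, while the median of short genes was 90.2% and that of all 6346 gene bodies with at least 3 sites was 89.9%. Of the long genes 41.7% lay under 85%, compared with 26.3% of short genes, and 23.1% of long genes but 51.3% of short genes reached 90%. Between any pair of libraries the levels of the 311 long genes with at least 10 sites correlated at 0.802 to 0.947, so the order of genes was much alike in all libraries. The pairs with DM-aKG replicate 3 had the lowest correlations, 0.802 to 0.861. Most of the variation between sites was nevertheless within genes. Differences between genes made up 14.1% of the variance over 26936 long body sites, and the SD of site levels within a gene had a median of 10.9 points and ran from 1.99 to 17.6. Just above the cutoff on span, Kcnq3 (300263 bases) had 82.7%, Pid1 (303550 bases) 82.4% and Plce1 (304072 bases) 93.3%. Just below it, Klhl29 (298218 bases) had 87.0%, Kcnmb2 (298320 bases) 80.6% and AW554918 (298592 bases) 94.3%.

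**Figure D2:**
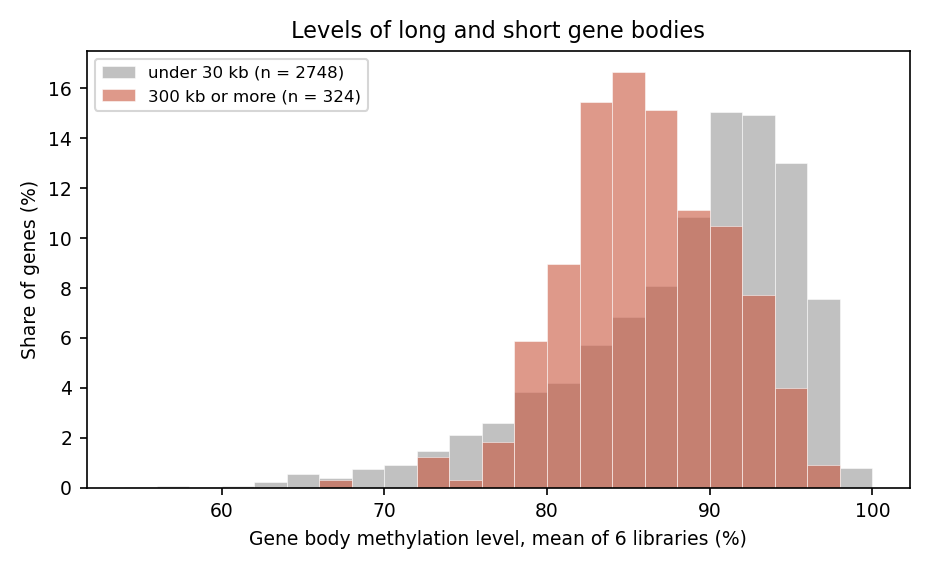
Distribution of gene body levels (horizontal axis, percent, mean of 6 libraries) as the share of genes in each bin (vertical axis, percent) for 324 long and 2748 short genes. The long genes peak near their median of 85.9%, below the short genes' median of 90.2%.

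Among long bodies with at least 10 sites, those of Zfpm2, Spag16, Dtna and Kcnh8 had the lowest levels. Zfpm2 (chr15:40655042-41104592) encodes a cofactor of GATA transcription factors. Its 11 sites averaged 59.4%, 76.2% and 73.2% in the controls and 74.4%, 76.1% and 77.4% with DM-aKG. One control lay far below the other 5 libraries, and the groups overlap. Kcnh8 (chr17:52602709-52979194), a voltage-gated potassium channel gene, had 13 sites at 65.2%, 73.6% and 71.8% in the controls and 71.4%, 74.0% and 85.5% with DM-aKG. Here control replicate 1 was low and DM-aKG replicate 3 was high, and the rest lay within 3 points of each other.

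Spag16 (chr1:69826872-70725132), which encodes a protein of the sperm axoneme, averaged 63.6%, 72.7% and 74.2% in the controls and 73.1%, 76.2% and 79.9% with DM-aKG over 18 sites. The groups overlap. Dtna (chr18:23310006-23659719) encodes dystrobrevin alpha, a part of the dystrophin complex. Its 16 sites averaged 69.1%, 73.1% and 69.4% in the controls and 74.4%, 73.7% and 80.3% with DM-aKG, without overlap.

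The most methylated long bodies varied little between libraries. Dach1 (chr14:97786846-98169765), a transcription cofactor gene, averaged 96.9% over 19 sites and lay between 95.9% and 97.8% in every library. Vps13b (chr15:35371118-35931229) encodes a lipid-transfer protein of the Golgi apparatus. Its 133 sites averaged 96.3%, with 95.4% to 97.3% in the 6 libraries, and the lowest of them had a mean of 85%. Pcsk5, a proprotein convertase gene, stood at 96.2% over 30 sites. Gmds, an enzyme of GDP-fucose synthesis, and Gphn, which encodes the scaffold gephyrin, both stood at 95.4%, over 21 and 32 sites. The groups overlap in all 5 genes.

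The longest genes were not the least methylated. Lsamp, a neuronal cell adhesion gene of 2197426 bases, had only 56 sites, at 88.4%, 90.2% and 90.6% in the controls and 91.8%, 89.9% and 91.1% with DM-aKG. Lrp1b, a giant lipoprotein receptor gene of 2058309 bases, had 116 sites at 81.3%, 87.2% and 84.7% and then 86.3%, 85.6% and 89.4%. Both pairs of groups overlap. Macrod2 (1997664 bases), an ADP-ribosyl hydrolase gene, averaged 89.7%. Nrxn3 (1612235 bases), which encodes a presynaptic neurexin, averaged 88.9%. Fhit (1611970 bases), a nucleotide hydrolase gene at a fragile site, averaged 90.1%. By span, the 193 genes of 300000 to 500000 bases had a median of 86.8%, the 99 of up to 1000000 bases 84.9%, and the 32 longer ones 85.4%.

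The genes with the most sites included 3 annotated spans over the clustered protocadherins on chromosome 18, Gm37013 with 767 sites and Gm38666 and Gm38667 with 743 each. The last 2 share all their sites and were one measurement. Protocadherins of this locus are adhesion molecules that give neurons individual surface identities. Gm37013 averaged 75.9%, 78.7% and 78.3% in the controls and 78.8%, 79.8% and 80.2% with DM-aKG. All treated libraries lay above all controls, by 1.99 points in the mean, or 1.11 without control replicate 1 (limma adjusted p = 0.782), and 47.8% of its sites had a mean under 80%. Without the 3 spans the long body difference was 1.75 points. The level gap between long and short bodies was then -1.73 points, beside -1.97 with them. Slc39a11, a zinc transporter gene, had 463 sites at 91.1%, and Agap1, an ARF GTPase-activating gene, had 413 sites at 90.9%. Their groups overlap, and their differences were 0.11 and 0.236 points.

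Levels were then set out by what the genes encode, over 7 lists that hold 183 of the 324 long genes. A gene may stand in several lists. The lists are not complete. The neural cell adhesion gene Ncam2, the potassium channel gene Kcnh8 and the protocadherin spans stand in none of them. The genes in no list therefore include adhesion and channel genes. The lists were put together with earlier results of these data known, and their values are a description. Neuronal adhesion and axon guidance genes (30 of 56 listed were long and measured) had a median level of 84.7%, with 17 of 30 under 85% and 2 at 90% or more. Ion channel, transmitter receptor and synaptic genes (45 of 81) had a median of 84.4%, with 24 under 85% and 5 at 90% or more. Genes widely transcribed in epithelium (39 of 72) had a median of 91.5%, with 5 under 85% and 27 at 90% or more. The last list is general knowledge of these genes, since transcription was not measured here.

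The other lists lay between. The median was 86.7% for kinases, phosphatases and phosphodiesterases (26 genes), 87.0% for transcription factors, chromatin and RNA-binding proteins (23 genes), 86.7% for cytoskeleton, polarity and matrix genes (39 genes) and 86.0% for the 141 long genes in no list. Fragile site genes (17) had a median of 89.7%. The 5 of them that are also in the epithelial list (Fhit, Gmds, Immp2l, Pard3b and Ptprg) had a median of 92.2%, and the other 12 had 85.1%. The epithelial list also shares 9 genes with the kinase list, 10 with the cytoskeleton list and 5 with the transcription factor list.

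The gap between the epithelial and the neuronal genes was present in all 6 libraries. The lists were chosen with earlier results of these data known, and gene levels were much alike between libraries. Its recurrence is therefore a description and no test. The 38 epithelial genes outside the neuronal and synaptic lists lay above the 74 neuronal and synaptic genes outside the epithelial list by 9.12, 5.78 and 6.25 points in the controls and by 6.32, 5.06 and 4.61 points with DM-aKG. The gap was widest in control replicate 1. The neuronal adhesion list averaged 79.5%, 84.7% and 83.6% in the controls and 85%, 86.0% and 86.8% with DM-aKG. The epithelial list averaged 89.5%, 90.5% and 90.7% and then 91.3%, 90.8% and 91.2%. Neither list had overlapping groups, while in the channel and synaptic list the lowest treated library, at 84.9%, lay just below the highest control, at 85%.

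**Figure D3:**
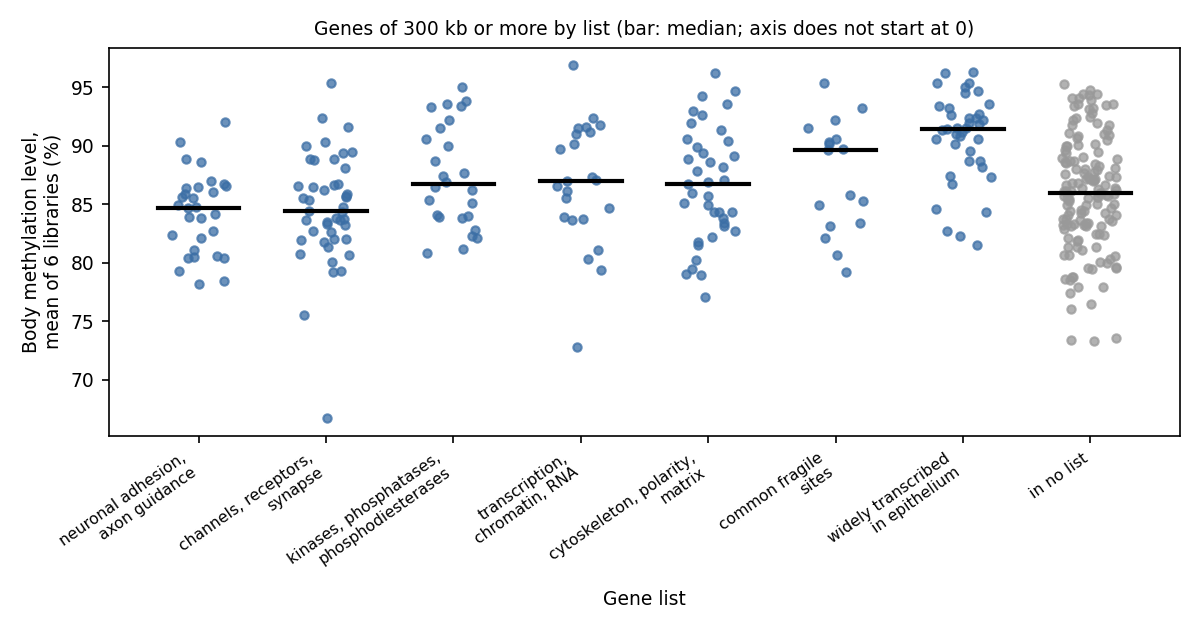
Body level of each long gene (vertical axis, percent, mean of 6 libraries, not starting at 0) in 7 gene lists and in no list (horizontal axis), with a bar at each median. Neuronal adhesion and synaptic genes centre on 84.7% and 84.4%, genes widely transcribed in epithelium on 91.5%.

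No long gene passed the test of single genes. In the limma fit over all 6346 gene bodies, 0 passed an adjusted p of 0.05 (0% of all gene bodies), and the smallest adjusted p was 0.620 among long genes and 0.0621 over all. At an unadjusted limma p under 0.05, 13 of 324 long genes were higher with DM-aKG and 0 lower. Over all 6346 gene bodies 295 were higher (4.65%) and 78 lower (1.23%). The share higher was thus no larger in long genes than over all gene bodies. Groups did not overlap in 78 long genes, all higher with DM-aKG, which is 24.1% of the 324 beside 11.3% of all gene bodies. In 0 long genes were all treated libraries below all controls, beside 2.38% of all gene bodies. The difference was above 0 in 289 long genes (89.2%) beside 67% of all. Its median was 2.08 points in long genes, 0.706 over all gene bodies and 0.50 in short genes, and it stayed within 5 points either way in 307 long genes.

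These counts moved with control replicate 1, with the scaling of libraries and with the handling of the value 0. Without that library, groups did not overlap in 82 long genes higher (25.3%) and 7 lower (2.16%), beside 15.8% and 5.74% of all gene bodies. In that setting 260 differences (80.2%) were above 0, beside 63.2% of all, and the median was 0.967 points beside 0.462 over all. Without DM-aKG replicate 3 the median was 1.57 points beside 0.711 over all. With the means of all libraries made equal, the median over all gene bodies shifted to -0.19 points and that of the long genes to 1.12. In that setting 73.1% of long genes (237 of 324) were above 0, beside 45.0% of all gene bodies (2856 of 6346). The share was lowest with every 0 kept as a level of 0. There 61.3% of long genes (200 of 326) were above 0, beside 48.5% of all gene bodies (3366 of 6936). The medians were then 1.16 points in long genes and -0.16 over all.

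The difference was smaller in more methylated genes. Over 31 long genes under 80% it averaged 3.20 points, over 104 genes of 80% to 85% 2.88 points, over 114 genes of 85% to 90% 2.15 points, and over 75 genes of 90% or more 0.49 points. Without control replicate 1 these values were 1.32, 1.32, 1.17 and 0.30 points. Short genes in the same ranges had 1.45, 1.32, 0.76 and 0.31 points over all 6 libraries. Without control replicate 1 they had 1.12, 0.71, 0.58 and 0.19 points. Across the 324 long genes the level and the difference correlated at r = -0.557, and at -0.267 without control replicate 1. Both come from the same 6 libraries, so this is a description across genes and no test. Groups did not overlap, with DM-aKG higher, in 8, 27, 36 and 7 long genes of the 4 ranges, which is 25.8%, 26.0%, 31.6% and 9.33% of them. The same share was 9.50%, 11.5%, 8.47% and 6.45% in short genes of these ranges, and 11.3% over all gene bodies, so the long genes at 90% or more lay below the overall share.

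**Figure D4:**
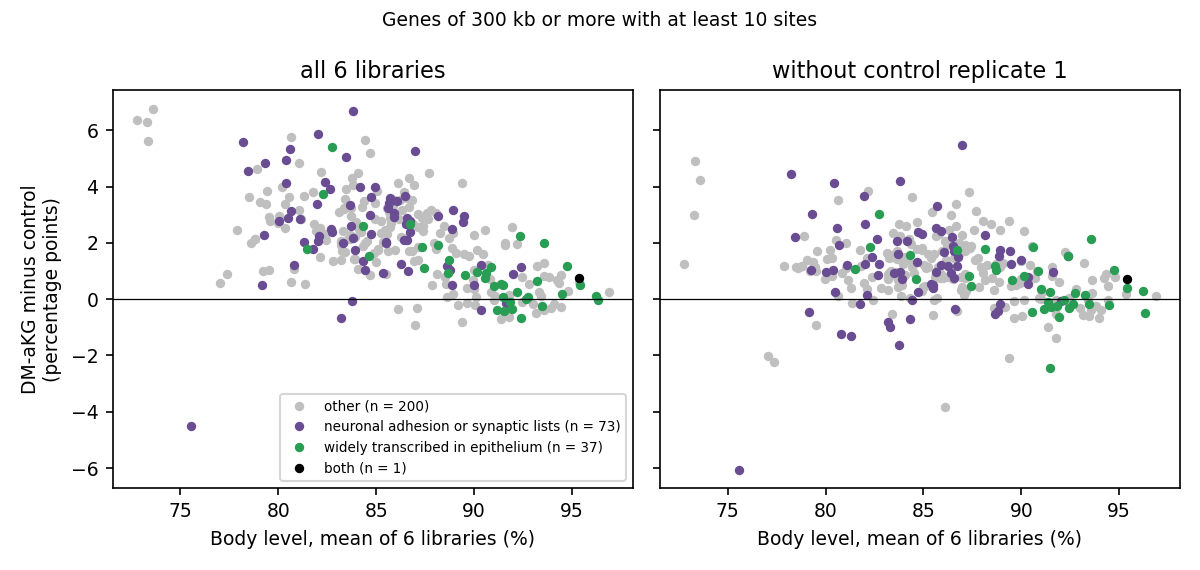
DM-aKG minus control difference (vertical axis, percentage points) against the body level (horizontal axis, percent, mean of 6 libraries) for 311 long genes with at least 10 sites, with all 6 libraries (left) and without control replicate 1 (right). Genes at 90% or more lie close to 0 in both panels, and the differences of less methylated genes shrink when that library is left out.

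Differences by list are given as medians, beside 0.706 points over all gene bodies, of which 67% were above 0 and 11.3% had treated libraries all above the controls. Over all 324 long genes these values were 2.08 points, 89.2% and 24.1%. In the 141 long genes in no list they were 2.18 points, 87.2% and 25.5%. The median difference was 3.24 points in the neuronal adhesion list, where 30 of 30 genes were above 0 and groups did not overlap in 12. It was 2.17 points in the channel and synaptic list, where 40 of 45 were above 0 and 11 did not overlap (24.4%). That list was thus close to the long genes as a whole. In the epithelial list it was 0.741 points, close to that of all gene bodies. There 30 of 39 genes were above 0, and groups did not overlap in 7. The median was 1.46 points for kinases (24 of 26 above 0) and 1.52 for transcription factors (19 of 23). It was 1.74 for cytoskeleton and matrix genes (35 of 39) and 1.38 for fragile site genes (17 of 17). Without control replicate 1 the medians were 1.59 in the neuronal adhesion list, 0.96 in the channel list and 0.41 in the epithelial list, beside 0.46 over all gene bodies. In that setting the kinase list had 0.64, the transcription factor list 0.90, the cytoskeleton list 1.01 and the fragile site list 0.83 points. Differences above 0 then numbered 27 of 30 in the neuronal adhesion list and 15 of 17 in the fragile site list. With library means made equal, all gene bodies had -0.19 points, the neuronal adhesion list 2.24, the channel list 1.22 and the epithelial list -0.24, while the other 4 lists lay between 0.41 and 0.74. With every 0 kept as a level of 0, all gene bodies had -0.16 points, these 3 lists 2.71, 1.26 and -0.02, and the transcription factor list -0.59. Differences above 0 then numbered 22 of 30 in the neuronal adhesion, 32 of 45 in the channel and 19 of 39 in the epithelial list. They numbered 15 of 26 for kinases, 11 of 23 for transcription factors, 23 of 39 for cytoskeleton and 13 of 17 for fragile site genes, beside 48.5% of all gene bodies. The epithelial list thus turned sign in the same settings as the median of all gene bodies.

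The long genes with the smallest unadjusted limma p among those without overlap were Plxdc2, Ncam2, Abca13, Dner and Ralyl, all higher with DM-aKG. Plxdc2 (chr2:16355740-16761132) encodes a plexin-domain membrane protein and had only 4 sites. They averaged 77.2%, 80.2% and 76.5% in the controls and 87.5%, 88.2% and 87.5% with DM-aKG, which differ by 9.75 points (limma adjusted p = 0.620). Ncam2 (chr16:81200697-81624290), a neural cell adhesion gene, averaged 67.4%, 68.8% and 74.2% in the controls and 82.2%, 77.8% and 85.6% with DM-aKG over 8 sites. The lowest treated library lay above the highest control in both genes, and the difference in Ncam2 was 11.8 points, or 10.4 without control replicate 1 (limma adjusted p = 0.760).

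Abca13 (chr11:9191942-9684871), a gene of the ABC transporter family, rests on 67 sites. It averaged 82.7%, 85.9% and 87.7% in the controls and 89.9%, 88.9% and 91.0% with DM-aKG, which differ by 4.49 points (limma adjusted p = 0.760). Dner (chr1:84369839-84696221), which encodes a membrane protein with Notch-like repeats, averaged 86.0%, 87.8% and 85.8% in the controls and 89.0%, 90.2% and 89.5% with DM-aKG over 49 sites. Its difference was 3.05 points, and 2.77 without control replicate 1. Ralyl (chr3:13471655-14182287), a gene for an RNA-binding protein, averaged 82.6%, 86.6% and 84.3% in the controls and 88.0%, 87.6% and 90.8% with DM-aKG over 50 sites, a difference of 4.31 points. None of the 5 passed the adjusted threshold. Where zeros entered the means as levels the sign turned in Plxdc2, to -11.7 points, and in Dner, to -1.53 points.

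The best covered gene of the neuronal adhesion list was Cdh23 (chr10:60302748-60696513), a cadherin of hair cell tip links. Its 320 sites averaged 81.0%, 84.2% and 83.9% in the controls and 84.1%, 85.1% and 85.1% with DM-aKG, with a slight overlap. Slit3 (chr11:35121456-35708507), an axon guidance ligand, had 243 sites at 76.8%, 83.1% and 83.0% in the controls and 82.5%, 82.9% and 84.2% with DM-aKG. Its difference of 2.23 points came down to 0.147 points without control replicate 1. Tenm2, a teneurin adhesion gene with 229 sites, stood at 86.4% with a difference of 2.09 points, or 0.933 without control replicate 1, and overlap. Ctnna3 (chr10:63430098-65003667), an alpha-catenin gene that is also a fragile site, had 219 sites at 79.6%, 84.9% and 84.4% in the controls and 86.5%, 86.8% and 87.5% with DM-aKG. All treated libraries were above all controls, by 3.98 points in the mean and 2.30 without control replicate 1 (limma adjusted p = 0.760).

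Among channel and synaptic genes, Grip1 (chr10:119453238-120087267), a scaffold of glutamate receptors, had 273 sites at 83.8%, 86.9% and 86.0% in the controls and 87.5%, 87.2% and 89.2% with DM-aKG. Asic2 (chr11:80880163-81968396), an acid-sensing channel gene, had 191 sites at 80.4%, 82.8% and 84.0% in the controls and 84.4%, 84.2% and 86.4% with DM-aKG. Groups did not overlap in either gene, with differences of 2.38 and 2.61 points, or 1.49 and 1.59 without control replicate 1. Anks1b, a postsynaptic ankyrin repeat gene, averaged 85.5% over 195 sites, and its difference of 2.04 points came down to 0.50 without control replicate 1.

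In the transcription and RNA list, Rbfox3 (chr11:118489760-118911597), the neuronal splicing factor known as NeuN, had 256 sites at 74.7%, 80.5% and 80.7% in the controls and 80.7%, 81.8% and 83.6% with DM-aKG. The groups touch near 80.7% without overlapping, and the difference of 3.39 points came down to 1.45 without control replicate 1. Msi2 (chr11:88339382-88718306), an RNA-binding protein gene used in intestinal progenitors, also had 256 sites but lay far higher, at 93.5%, 92.4% and 92.4% in the controls and 92.6%, 92.4% and 91.3% with DM-aKG. Its difference was -0.681 points, with overlap. Tshz2, a zinc finger gene, averaged 83.9% over 272 sites with a difference of 1.44 points, or 0.903 without control replicate 1, and overlap.

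Of the cytoskeletal genes that are also in the epithelial list, Tiam1 (chr16:89787111-90145600), an activator of the GTPase Rac, had 298 sites at 92.4%, 92.9% and 92.8% in the controls and 93%, 93% and 91.9% with DM-aKG. Dst (chr1:33907888-34308662), a linker of filaments to hemidesmosomes, had 285 sites at 89.8%, 91.6% and 91.9% in the controls and 91.0%, 91.5% and 92.4% with DM-aKG. The groups overlap in both. Ank3 (chr10:69533486-70027436), a membrane ankyrin gene, had 284 sites at 87.0%, 87.2% and 87.4% in the controls and 87.9%, 88.5% and 90.9% with DM-aKG. The 3 controls lay within 1 point and all treated libraries lay above them, by 1.91 points, or 1.8 without control replicate 1 (limma adjusted p = 0.760).

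The best covered kinase and phosphatase genes were Prkce, a protein kinase C gene with 260 sites, Mast4, a microtubule-associated kinase gene with 237, and Ptprm, a receptor phosphatase gene with 220. Prkce read 87.3%, 88.4% and 88.3% in the controls and 89.1%, 89.6% and 89.5% with DM-aKG, without overlap. Mast4 had a control mean of 89.5% and a DM-aKG mean of 90.5%, with a difference of 1.04 points (0.607 without control replicate 1) and no overlap, and Ptprm 87.5% with a difference of 1.11 points (0.477 without that library) and overlap. In the fragile site list Esrrg, a nuclear receptor gene with 207 sites, averaged 89.7%, and Gpc6, a glypican gene with 196 sites, averaged 83.2%. Their differences were 1.52 and 1.38 points, or 0.496 and 0.323 without control replicate 1, and their groups overlap.

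Along the gene, levels were nearly flat on average. The spans of 174 long genes with a known strand and with sites all along were cut into 3 equal parts. The mean over genes was 85.7% in the part at the 5′ end, 86.2% in the middle and 86.6% at the 3′ end. The 5′ part lay above the 3′ part in 80 of 174 genes. Differences between DM-aKG and control were 1.91, 1.99 and 1.99 points from the 5′ to the 3′ part, or 0.846, 0.806 and 0.994 points without control replicate 1. In 220 short genes the same parts had 86.8%, 88.5% and 88.5%.

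Single genes varied more along their length, seen in 10 equal parts counted from the gene start. In Cdh23, part 1 averaged 73.2% and part 10 averaged 91.4%. Grip1 had its lowest level in part 4, at 75.7%, and its highest in part 7, at 92.3%. Ctnna3 was lowest in part 4, at 71.2% over 7 sites, and the DM-aKG mean was above the control mean in each of its 10 parts. Tiam1 had no site in parts 2, 3 and 4, stood at 97.2% in part 1, dipped to 85.9% in part 6, and stayed at 92.3% or more in the rest. The annotation used gives spans without exons, so exonic and intronic sites could not be told apart.

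**Figure D5:**
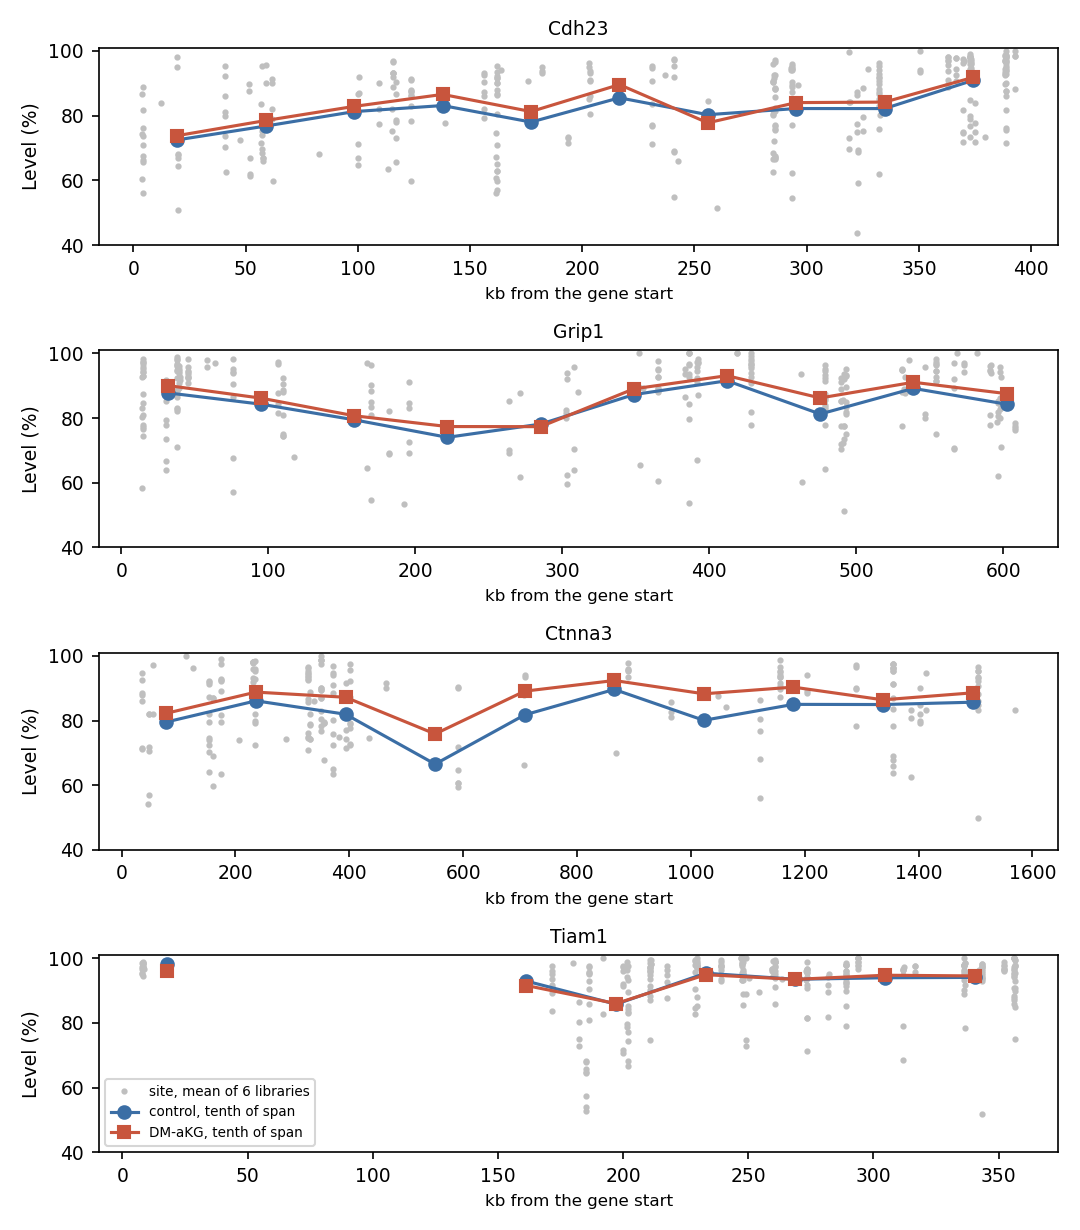
Methylation level (vertical axis, percent, from 40) against distance from the gene start (horizontal axis, kb) in Cdh23, Grip1, Ctnna3 and Tiam1, with grey points for site means over 6 libraries and lines for the control and DM-aKG means in 10 equal parts of the span, broken where a part holds no site. Cdh23 has 73.2% in its first part and 91.4% in its last, with dips between them, and the control and DM-aKG lines of Tiam1 lie close together.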

How the data were processed

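The deposited table holds, per the file headers, 1 column per library, and its values are the percent methylation the authors computed per cytosine position, in whole numbers. CASAVA 1.8, Novoalign 3.08.02 and build mm10 are named in the submitters' processing notes; what each did, and which methylation caller was used, is not stated there or in the labels. Rows after 390208 (423642 rows) were left out, because libraries no longer line up there. Start positions count from 1: 4486 of 4491 positions inside promoter windows fall on a CG.

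Gene spans came from RefSeq (GRCm38.p6, the assembly of mm10); strand was known for 246 long genes through the promoter table. A gene's level is the mean of its sites, and overlapping genes share sites. Means over sites were compared by exact permutation tests over the 20 assignments of libraries, the gap between long and short bodies by exact sign flips. Genes with at least 3 sites entered a limma fit (limma 3.58.1, R 4.3.3) of the log2 odds of their level, with an offset of 0.01 and no replicate block, adjusted by Benjamini-Hochberg over 6346 genes at a threshold of 0.05. The test was first tried on simulated data. Python 3.11.15 with numpy 2.4.6, pandas 2.3.3 and scipy 1.17.1 did the rest.

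Members and the 7 gene lists were chosen with earlier results of these data known. Named genes are, among long genes, the 5 highest and 5 lowest levels with at least 10 sites, the 5 smallest limma p per direction without overlap (none was lower), the 5 longest, the 5 with most sites and the 3 best covered of each list. Some of what this rule names is not reported here. Genes at the span cutoff, the 3 genes under 3 sites and hosts of promoter windows are named besides. Alternatives covered the weighting of genes, the handling of 0, pairs of adjacent positions, shared sites, span cutoffs, margins, site minimums, scaling, the replicate block and each library left out.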

Additional observations from a re-analysis of the deposited data

How the results depend on the processing

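The difference between DM-aKG and control in long bodies kept its sign under all 16 alternatives, between 0.548 and 2.23 points, and leaving out 1 library gave 0.863 to 2.23 points. Short bodies ran from 0.440 to 0.804 points with 1 library left out. Keeping each 0 as a level reversed the short body difference to -0.803 points (exact permutation p = 0.5), Plxdc2 to -11.7 and Dner to -1.53 points; the cause was not tested. The gap in treatment difference between long and short bodies stayed above 0 under all 17 alternatives, between 0.423 and 1.55 points. The gap in level stayed below 0 under all 16, between -3.18 and -1.46 points, and with 1 library left out it was -2.18 to -1.59, where 5 libraries allow no exact sign-flip p under 0.0625. The number of gene bodies past the limma threshold was 1 with untransformed levels (Tmem200c), 1 with at least 1 site per gene (BC147527), 1 with each 0 kept as a level (Qrsl1) and 0 in the other 12 settings, and 0 of these were long genes. The count of long genes at an unadjusted limma p under 0.05, out of 324, was 13 in the main fit, beside 373 of 6346 gene bodies. It was lowest at 3, without control replicate 1 (beside 297 of 6346) and with library means made equal (beside 341). It was highest at 25 with untransformed levels, beside 403 of 6346. Without the protocadherin spans, an alternative added after seeing the data, the long body difference was 1.75 points and the gap in level -1.73 points. Deviations of same-numbered libraries correlated at r = 0.0761, -0.0144 and 0.0485, within the -0.0976 to 0.0878 of differently numbered ones. Whether the replicate numbers mark pairs is not stated and cannot be decided from these values. With the replicate block the differences were 1.76 points in long bodies, 0.647 in short bodies and 1.11 between them (exact sign-flip p = 0.25 each, the smallest 3 pairs allow), and 0 genes passed limma. Depth is unknown, so noise from few reads per site cannot be told from other spread.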
